A study of Homo sapiens with 6 samples.

Results

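Podocalyxin (*PODXL*) was examined in colon fibroblasts together with its relatives of the CD34 sialomucin family, *PODXL2* and *CD34*, and with ezrin, radixin and moesin (*EZR*, *RDX* and *MSN*), the ERM proteins that bind its tail. The 6 genes were found by symbol among 60663 genes of the count table. *PODXL* was chosen by its fold change between siLTBP2 and siNT in earlier results of these libraries, so its values below are a description without a test. Its 2 relatives and the 3 ERM genes were added for their family and function. CCD18Co cells, an established line of fibroblasts from normal human colon, received a pool of siRNAs against *LTBP2*, a latent TGF-beta binding protein of the extracellular matrix (siLTBP2), or a non-targeting pool (siNT). The comparison asks what the fibroblasts express when *LTBP2* is knocked down. Transfection lasted 6 h, and RNA was taken from cells frozen 48 h after transfection, in 3 libraries of each group. It was a transient knockdown by 1 siRNA pool per group in 1 cell line. As no source used here says whether the replicates were separate cultures, p-values measure only the spread between these libraries.

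Podocalyxin, endoglycan (the product of *PODXL2*) and CD34 are membrane proteins with a long outer domain that carries many O-linked glycans ending in sialic acid. This negatively charged coat keeps neighbouring membranes apart, as between the foot processes of kidney podocytes, and with suitable glycans it is also bound by selectins on blood and vessel cells. The short inner tail of podocalyxin binds ezrin and ends in a motif for the PDZ scaffolds NHERF1 and NHERF2. ERM proteins join such tails to cortical actin. They open on binding the phosphoinositide PIP2 and are then held active by phosphorylation of a threonine near their end. CD34 is best known from blood stem cells and endothelium, and it also marks many fibroblasts resident in tissue.

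Library totals ran from 44663424 to 53576899 counts. Levels are given in CPM, the counts of a gene scaled to a fixed library total, after TMM scaling, edgeR's correction for library composition. The siRNA target *LTBP2* fell from 23.09 ± 1.89 CPM (SD, n = 3) to 7.03 ± 1.39 CPM, which is -1.72 on the log2 scale (SE 0.15, adjusted p = 6.6e-05). Of 16920 genes tested with edgeR's quasi-likelihood test, 434 (2.57%) were deregulated, which takes an adjusted p under 0.01 and more than a 2-fold difference, the thresholds of the study. The study itself used edgeR's likelihood ratio test, which called 619 genes here. At an adjusted p below 0.05, the level at which a gene is said to have passed, risen or fallen here, 3261 genes (19.3%) passed, 1652 higher (9.76%) and 1609 lower (9.51%) in siLTBP2. The libraries of both groups did not overlap in 6267 tested genes (37%).

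*PODXL* (ENSG00000128567) lies on the minus strand of chromosome 7 at chr7:131500262-131558217 of GRCh38. Its canonical transcript has 9 exons and 5986 bases, of which 4040 are 3′ UTR. In siNT its level was 0.93, 0.65 and 1.61 CPM in replicates 1 to 3, from 43, 32 and 87 counts. In siLTBP2 it was 5.46, 5.54 and 11.4 CPM, from 238, 262 and 601 counts. Every siLTBP2 library was above every siNT library, and replicate 3 was the highest in both groups. The mean went from 1.06 ± 0.50 CPM (SD, n = 3) to 7.47 ± 3.41 CPM. Compared between libraries of the same replicate number, *PODXL* was 5.87-fold, 8.55-fold and 7.07-fold higher in siLTBP2, so the fold changes were closer to each other than the levels were. The fitted log2 fold change was 2.80 (standard error, SE, 0.37, 95% interval 1.99 to 3.61), which is 6.97-fold with an interval from 3.98 to 12.2. It stayed between 2.36 and 3.25 over 14 alternative settings of the same libraries. As *PODXL* was chosen on this value, the interval and the range are no test, and the size may be overstated. *PODXL* was thus a barely expressed gene in siNT and a lowly expressed one in siLTBP2.

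*PODXL2* (ENSG00000114631) went the other way. It lies on the plus strand at chr3:127629185-127672802, with 8 exons and a single annotated transcript of 2175 bases. Its level was 8.56, 7.21 and 6.84 CPM in siNT, from 396, 356 and 369 counts. It was 3.23, 3.68 and 2.87 CPM in siLTBP2, from 141, 174 and 151 counts. The groups did not overlap, and the libraries of each group lay close together. From a mean of 7.54 ± 0.91 CPM (SD, n = 3) it fell to 3.26 ± 0.41 CPM, or 43.2% of siNT. On the log2 scale this is -1.21 (SE 0.16, 95% interval -1.56 to -0.86, adjusted p = 0.000601). *PODXL2* was therefore deregulated by the thresholds above, as 2.57% of all tested genes were, and it passed in 14 of 14 alternative settings.

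*CD34* (ENSG00000174059), on the minus strand at chr1:207880972-207911402 with 8 exons, was near the lower end of what could be tested. It had 28, 14 and 27 counts in siNT and 11, 37 and 26 counts in siLTBP2. The corresponding levels were 0.61, 0.28 and 0.50 CPM in siNT. In siLTBP2 they were 0.25, 0.78 and 0.49 CPM. The groups overlapped fully, with the lowest and the highest library both in siLTBP2. Its log2 fold change of 0.15 (SE 0.42, adjusted p = 0.849) has a 95% interval from a 0.584-fold to a 2.1-fold level. A change of *CD34* anywhere in that interval is within the error of this fit. The sign depended on single libraries, being -0.29 without siLTBP2 replicate 2 and -0.11 without siNT replicate 2.

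**Figure D1:**
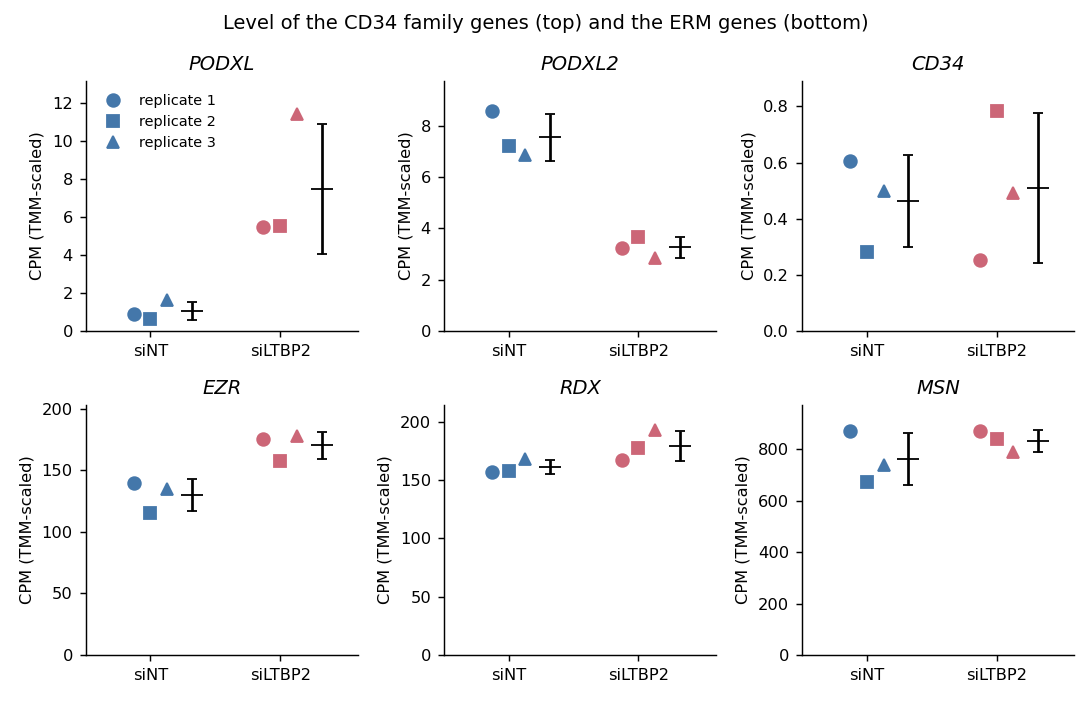
Level of each gene in CPM (TMM-scaled, linear axes from 0) by group, with the CD34 family in the upper row and the ERM genes in the lower row. Symbols mark replicates 1 to 3 and black bars the mean ± SD. *PODXL* and *EZR* are higher and *PODXL2* lower in every siLTBP2 library, while *CD34*, *RDX* and *MSN* overlap between the groups.

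Levels of different genes were compared per kilobase of the canonical transcript. In siNT the 3 family members followed the order *PODXL2* (3.47 ± 0.42 CPM per kilobase), *PODXL* (0.178 ± 0.083) and *CD34* (0.058 ± 0.021), and no library of one gene overlapped those of the next. In siLTBP2, *PODXL2* (1.499 ± 0.187 CPM per kilobase) and *PODXL* (1.25 ± 0.57) overlapped, both far above *CD34* (0.064 ± 0.033). The ratio of *PODXL* to *PODXL2* per kilobase was 0.0395, 0.0327 and 0.0856 in siNT and 0.613, 0.547 and 1.45 in siLTBP2. As a share of the summed level of the 3 genes, *PODXL* was 3.73%, 3.13% and 7.75% in siNT and 37.5%, 34.1% and 58.0% in siLTBP2. *PODXL2* accounted for 93.6% ± 2.8 (SD, n = 3) in siNT and 54.5% ± 12.5 in siLTBP2. *CD34* stayed between 1.03% and 3.62% in all 6 libraries. On this scale most family transcripts in siNT were *PODXL2*, and in siLTBP2 they were a mixture of *PODXL2* and *PODXL*. These shares contain the value on which *PODXL* was chosen and were not tested. They also depend on the length used. Per kilobase of coding sequence, which leaves out the long 3′ UTR of *PODXL*, its mean share was 12.2% in siNT and 64.8% in siLTBP2, where it exceeded that of *PODXL2* (28.5%). On that scale *PODXL2* was 80.2% in siNT, *CD34* lay between 4.15% and 11.3% over all libraries, and the siNT levels of *PODXL* (0.39 to 0.96 CPM per kilobase) and *CD34* (0.24 to 0.52) overlapped.

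**Figure D2:**
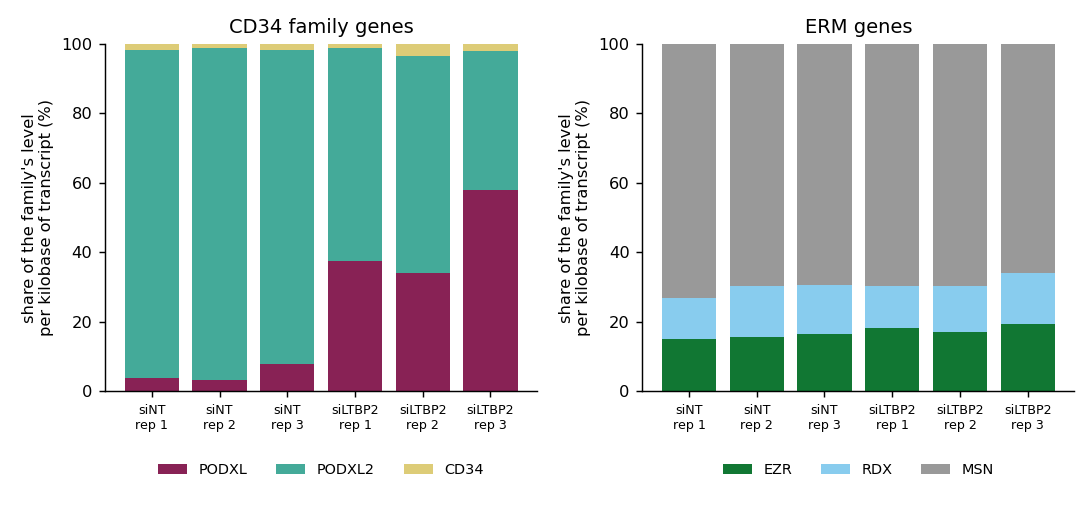
Share of each gene (percent) in the summed level per kilobase of canonical transcript of the CD34 family (left) and of the ERM genes (right), 1 bar per library. The part of *PODXL* is between 3.13% and 7.75% in siNT and between 34.1% and 58.0% in siLTBP2, while the 3 ERM parts differ little between libraries.

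The ERM genes were expressed at far higher levels than the CD34 family, and of the 3 only *EZR* passed the test. *EZR* (ENSG00000092820), which encodes ezrin, the ERM protein of microvilli and podocytes, lies on the minus strand at chr6:158765741-158819368 and has 14 exons. Its level was 139.9, 115.6 and 134.6 CPM in siNT and 175.5, 157.8 and 178.2 CPM in siLTBP2. All siLTBP2 libraries were above all siNT libraries, and the means were 130 ± 12.8 (SD, n = 3) and 170.5 ± 11.1 CPM. *EZR* rose 1.31-fold (95% interval 1.13-fold to 1.52-fold; log2 fold change 0.39, SE 0.10, adjusted p = 0.0175). Without siNT replicate 2 the adjusted p was 0.0506 (log2 fold change 0.31), and without siLTBP2 replicate 1 it was 0.0577 (0.37).

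*RDX* (ENSG00000137710), the gene of radixin, lies on the minus strand at chr11:109864295-110296712 with 14 exons in its canonical transcript. Its level was 157.1, 157.5 and 168.2 CPM in siNT and 166.7, 177.6 and 193 CPM in siLTBP2. The groups overlapped at 1 library on each side. The fitted difference was 0.15 on the log2 scale (SE 0.09, adjusted p = 0.25), with a 95% interval from 0.975-fold to 1.27-fold. *MSN* (ENSG00000147065), the gene of moesin, lies on the plus strand of the X chromosome at chrX:65588377-65741931 with 13 exons. Its level was 872.9, 673.3 and 740.4 CPM in siNT and 871, 838.2 and 788.4 CPM in siLTBP2, so that the highest siNT library was above all siLTBP2 libraries. The fitted difference was 0.13 (log2, SE 0.11, adjusted p = 0.482), with a 95% interval from 0.919-fold to 1.3-fold. The upper ends of both intervals lie just below the 1.31-fold of *EZR*, so changes nearly as large are within the error of this fit without a block. With the replicate block the errors were smaller, at 0.153 for *RDX* (SE 0.071, adjusted p = 0.0974) and 0.134 for *MSN* (SE 0.079, adjusted p = 0.196). *EZR* was at 0.393 (SE 0.071) in that fit. The test of whether *EZR* moved apart from the other ERM genes is that of the shares.

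Moesin transcripts were the most abundant of the 3. Per kilobase of canonical transcript, *MSN* reached 192.5 ± 25.6 CPM (SD, n = 3) in siNT and 210.2 ± 10.5 in siLTBP2. *EZR* reached 42.6 ± 4.2 and 55.9 ± 3.6 CPM per kilobase, and *RDX* 36.6 ± 1.4 and 40.8 ± 3.0. *EZR* and *RDX* overlapped in siNT and not in siLTBP2, and their order depended on the length used. Per kilobase of coding sequence, the mean of *RDX* was above that of *EZR* in both groups (91.9 against 73.8 CPM in siNT, 102.2 against 96.8 in siLTBP2). In siLTBP2 their libraries overlapped on this scale, with *EZR* (99.66) above *RDX* (95.15) in replicate 1. The share of *EZR* in the ERM total was 15.2%, 15.5% and 16.4% in siNT and 18.2%, 17% and 19.4% in siLTBP2, without overlap. The difference of 2.51 percentage points gave p = 0.1 in a two-sided exact permutation test, the smallest p that 3 libraries against 3 allow (0.3 adjusted over the 3 shares). The shares of *RDX* (difference -0.28 points, exact p = 0.9, adjusted 0.9) and *MSN* (difference -2.23 points, exact p = 0.4, adjusted 0.6) overlapped between the groups. With the replicate number as a block, the exact p was 0.25 for *EZR* and for *MSN*, the smallest that 3 pairs allow. The overlap of the *MSN* shares depended on the length used. Per kilobase of all annotated exons, a length added after the data were seen, they did not overlap (difference -3.2 points, exact p = 0.1). Nor did those of *EZR* (difference 3.95 points, exact p = 0.1).

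**Figure D3:**
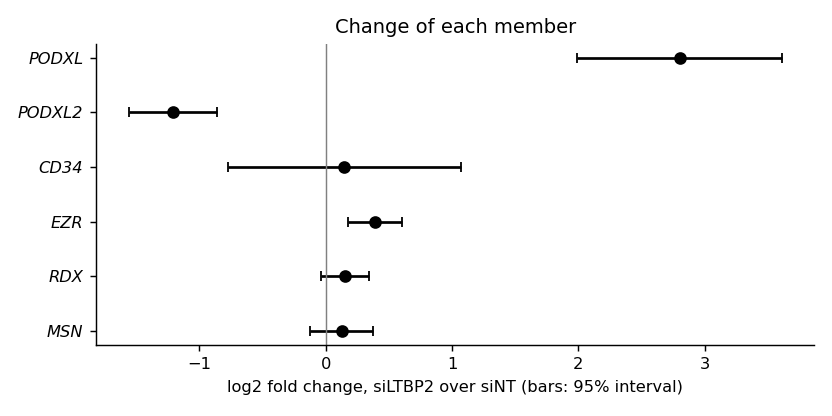
Log2 fold change of siLTBP2 over siNT for each gene, with the 95% interval of the quasi-likelihood fit as bars. The interval of *EZR* (0.18 to 0.60) lies above 0 and that of *PODXL2* (-1.56 to -0.86) below, while those of *CD34*, *RDX* and *MSN* cross 0. *PODXL* (1.99 to 3.61) was chosen on this contrast and is shown for its size only.

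All 6 genes were tested. Beside *PODXL*, which was selected on this contrast, 2 of the other 5 passed at an adjusted p of 0.05, *EZR* higher (background 9.76%) and *PODXL2* lower (9.51%). The libraries of the groups did not overlap in these 2 of the 5 genes, as in 37% of all tested genes. In bulk RNA, fewer cells that express a gene and less RNA per cell cannot be told apart.

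Pseudogenes and most antisense genes that could share reads with these 6 had few counts, with *ZC3H12C*, opposite *RDX*, as the exception. The processed pseudogenes of radixin and moesin had at most 3 counts (*RDXP2*), 18 counts (*RDXP3*), 1 count (*RDXP1*) and 10 counts (*MSNP1*) in any library, while *RDX* had at least 7264 and *MSN* at least 33240. The annotation places antisense transcripts across 4 of the genes. Those over *PODXL* (ENSG00000224545, a processed pseudogene), *CD34* (ENSG00000285719) and *EZR* (*EZR-AS1*) had at most 1, 1 and 3 counts in any library. *RDX* overlaps *ZC3H12C* on the opposite strand, which had between 2199 and 4050 counts and a log2 fold change of 0.14 (adjusted p = 0.598). A noncoding RNA opposite *RDX*, ENSG00000287245, had between 12 and 30 counts and a log2 fold change of 0.63 (adjusted p = 0.188). Libraries were stranded, but whether the counting used strand is not stated in the sources used here, so reads of *RDX* and *ZC3H12C* may not be fully separated.

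The tested genes next to *PODXL* on chromosome 7 were examined on either side. *MKLN1*, whose end lies 3.6 kb below *PODXL*, had 204.6 ± 9.1 CPM (SD, n = 3) in siNT and 231.6 ± 1.4 CPM in siLTBP2 (log2 fold change 0.18, SE 0.08, adjusted p = 0.15, and 0.05 with the replicate block). *MKLN1-AS*, a noncoding RNA within *MKLN1* on the other strand, rose by 0.48 (log2, SE 0.14, adjusted p = 0.037). *LINC-PINT*, *EEF1B2P6* and *CHCHD3* had log2 fold changes of 0.04, 0.26 and 0.09 with adjusted p of 0.904, 0.611 and 0.554. The semaphorin receptor gene *PLXNA4*, 565.1 kb above *PODXL*, was deregulated. Its level was 0.32, 0.55 and 1.22 CPM in siNT and 3.37, 3.85 and 5.31 CPM in siLTBP2, 2.56 higher on the log2 scale (SE 0.38, adjusted p = 0.00115). Like *PODXL*, it was barely expressed in siNT, and *EEF1B2P6*, the tested gene between them, did not pass.

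**Figure D4:**
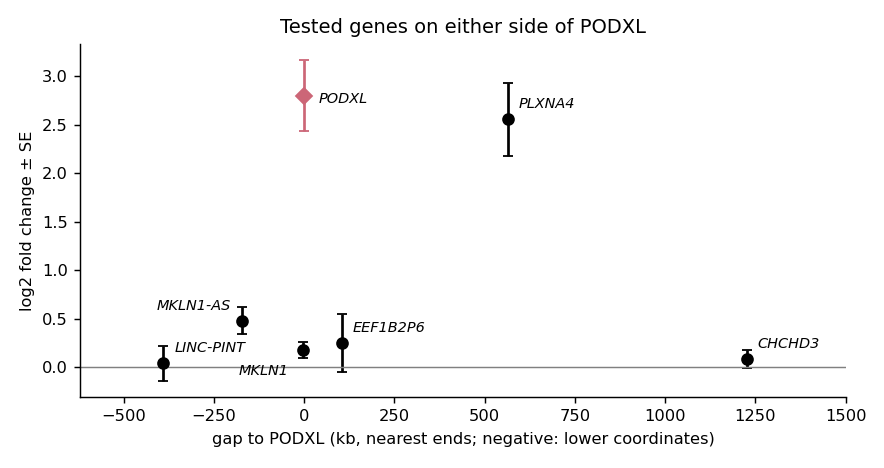
Log2 fold change of siLTBP2 over siNT (± SE) of *PODXL* and of the 3 nearest tested genes on each side, against the gap to *PODXL* in kb between the nearest gene ends (negative for lower coordinates). *PLXNA4* at 565.1 kb has a fold change close to that of *PODXL*, and the others lie between 0.04 and 0.48.

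Genes whose levels followed *PODXL* most closely were sought among 12384 genes with a mean of at least 1 CPM by Pearson's r of log2 CPM over the 6 libraries. The highest were *MIR100HG* (r = 0.9995), *HIF1A* (0.999), *ASAP2* (0.9983), *INSYN2B* (0.9982) and *DHX29* (0.9981). All 5 were higher in siLTBP2 and highest in replicate 3 of each group, the pattern of *PODXL*, but by less. *INSYN2B* had the largest log2 fold change of the 5, at 1.79, and *HIF1A*, the oxygen-sensing transcription factor, the smallest at 0.31. With group means removed, among 9363 genes with at least 10 CPM, the highest were *DPH2* (r = 0.9997), *PWP1* (0.9984), *FNIP1* (0.9983), *LRPPRC* (0.9981) and *MAPKAPK5* (0.9975). Of these *DPH2* fell by 0.48 on the log2 scale (adjusted p = 0.0317) and the other 4 did not pass, though *FNIP1* (0.20) did with the replicate block (adjusted p = 0.024). The points share their libraries and the group difference or the replicate number, and these values are descriptions over 6 points.

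Around the 6 genes, 78 genes in 8 lists were followed, covering partners, regulators, glycan enzymes, transport and transcription factors. Of these, 62 were tested, 12 passed higher and 14 lower, together 41.9% against 19.3% of all tested genes. The lists were chosen with earlier results of these data known, so this share and those below are descriptions only. The median log2 fold change was 0.11, against -0.01 over all genes tested. The list genes were on the whole well expressed, and among genes with a mean of at least 10 CPM the shares were 45.7% of 46 list genes and 25.3% of 9397 genes. With the replicate number as a block, 24 passed higher and 16 lower (64.5%), against 36.2% of all tested genes. Without siLTBP2 replicate 1 the count of 26 became 17, and likewise without siLTBP2 replicate 2. Deregulated were *SELPLG*, higher, and *NHERF1*, lower.

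Among the ERM scaffolds (8 tested, 1 higher, 3 lower, median log2 fold change -0.47), the 2 PDZ proteins that bind the podocalyxin tail went in opposite directions. *NHERF1* (*SLC9A3R1*) was at 16.6, 16.0 and 14.7 CPM in siNT and 7.66, 8.88 and 4.90 CPM in siLTBP2, a fall by 1.15 on the log2 scale (SE 0.19, adjusted p = 0.00216). *NHERF2* (*SLC9A3R2*), the scaffold of podocalyxin in podocytes, was at 109.4, 88.3 and 92.7 CPM in siNT and 155.6, 145 and 134 CPM in siLTBP2 (log2 fold change 0.58, SE 0.10, adjusted p = 0.00296). Neither gene overlapped between the groups. *NF2*, the gene of merlin, the closest relative of the ERM proteins and a tumour suppressor, fell from 303.2 ± 38.1 (SD, n = 3) to 158.8 ± 9.6 CPM (log2 fold change -0.93, SE 0.11, adjusted p = 0.000256). *ARHGDIA*, an inhibitor of small GTPases that ERM proteins bind, fell by 0.60 (adjusted p = 0.00398). All 4 calls held in 14 of 14 alternative settings. *CTTN*, *MPP1*, *AKAP5* and *PDZK1* did not pass, with *CTTN*, the actin-binding cortactin, at 0.20 (adjusted p = 0.197, and 0.0291 with the replicate block).

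In the list of ERM kinases and regulators, 10 of 11 genes were tested, with 4 higher (background 9.76%) and 2 lower (9.51%) and a median of 0.13. Of kinases that phosphorylate the ERM threonine, *SLK* rose from 88 to 127.2 CPM (log2 fold change 0.53, adjusted p = 0.00403) and *ROCK1* from 95.1 to 129.6 CPM (0.45, adjusted p = 0.00317). *STK10* (0.40, adjusted p = 0.0201) and *MAP4K4* (0.46, adjusted p = 0.0213) rose as well, each in 12 of 14 alternative settings. *PRKCA*, a protein kinase C that also acts on ERM proteins, fell by 0.42 (adjusted p = 0.0141), in 12 of 14 settings, and *PIP5K1C*, which makes PIP2, fell by 0.52 (adjusted p = 0.00761). *STK10* and *PRKCA* were both lost without siLTBP2 replicate 1, *STK10* also without siNT replicate 2 and *PRKCA* without siNT replicate 1. *MAP4K4* was lost without siNT replicate 2 or siLTBP2 replicate 3. *ROCK2* (-0.09, adjusted p = 0.549) did not pass, nor did *RHOA*, the GTPase above the ROCK kinases (0.20, adjusted p = 0.137, and 0.0337 with the replicate block). Transcript levels of these kinases do not measure phosphorylation of the ERM proteins.

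Other membrane proteins with ERM-binding tails were uneven (6 of 11 tested, 1 higher, 2 lower, median 0.20). *CD44*, the hyaluronan receptor, was at 6517, 5078 and 5132 CPM in siNT and 3730, 3325 and 3194 CPM in siLTBP2, and fell by 0.71 (SE 0.13, adjusted p = 0.00456). It was far more abundant than any gene of the CD34 family in every library. *SDC2*, a heparan sulfate proteoglycan, fell by 0.43 (adjusted p = 0.00753). *SELPLG*, the gene of the P-selectin ligand PSGL-1, rose from 4.16 ± 1.122 (SD, n = 3) to 9.24 ± 2.29 CPM (log2 fold change 1.15, SE 0.23, adjusted p = 0.0057). *IGSF8* (0.32, adjusted p = 0.0694, and 0.00206 with the replicate block) and *ICAM3* (0.11, adjusted p = 0.651) did not pass. *PDPN*, *ICAM1*, *ICAM2*, *PTGFRN* and *SPN* had too few counts to be tested. Of the other mucin-like proteins, 4 of 7 were tested and none passed (median 0.17). *CD164*, another sialomucin, had a log2 fold change of 0.24 (adjusted p = 0.0756, and 0.00938 with the replicate block) and *TMEM123* one of 0.09 (adjusted p = 0.557).

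Among 24 genes listed for O-glycans, sialic acid and sulfation, 20 were tested, with 3 higher and 4 lower (median 0.18). *C1GALT1*, which extends the first sugar of mucin-type glycans, rose from 47.2 ± 4.8 (SD, n = 3) to 76.4 ± 13.6 CPM (log2 fold change 0.70, adjusted p = 0.00437) and held in all 14 alternative settings. *GALNT1*, which adds that first sugar, rose by 0.30 (adjusted p = 0.0271, passed in 8 of 14 settings), and *GCNT1*, which branches the glycan, by 0.56 (adjusted p = 0.0329, passed in 9 of 14). The protein tyrosine sulfotransferase gene *TPST1* fell by 0.41 (adjusted p = 0.00488, passed in 14 of 14). Of the sialyltransferase genes, *ST6GALNAC4* fell by 0.43 (adjusted p = 0.0114, passed in 13 of 14), *ST6GALNAC6*, at under 1 CPM on average, by 0.90 (adjusted p = 0.0399, passed in 7 of 13) and *ST3GAL1* by 0.38 (adjusted p = 0.0497, passed in 7 of 14). *GALNT2*, the most abundant of the list, had a log2 fold change of 0.19 (adjusted p = 0.197, and 0.0464 with the replicate block). With the replicate block *C1GALT1C1* (0.294, adjusted p = 0.0158), *NANS* (0.29, adjusted p = 0.00502) and *ST3GAL3* (0.34, adjusted p = 0.0343) also passed higher. So did *TPST2*, like *TPST1* a protein tyrosine sulfotransferase gene (0.33, adjusted p = 0.00126), while *ST3GAL4* passed lower (-0.26, adjusted p = 0.0104).

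Of the selectins, which bind such glycans, *SELE* and *SELP* had no count in any library, which allows at most 0.0672 CPM in the shallowest. Of 10 genes that carry podocalyxin to the apical surface of epithelial cysts, 2 rose and 2 fell (median 0.11). *RAB27A* (0.37, adjusted p = 0.0107) and its effector *SYTL2* (0.36, adjusted p = 0.025) rose, in 13 and 10 of 14 alternative settings. Its relative *RAB27B*, at 98.6 CPM in siNT against 33.6 CPM for *RAB27A*, was lower in every siLTBP2 library. It did not pass (-0.285, adjusted p = 0.0628), but did in 6 of 14 settings, among them the replicate block (adjusted p = 0.00165). *RAB3IP*, under 1 CPM on average, passed higher only in some settings (0.914, adjusted p = 0.0754, and 0.0103 with the replicate block). *RAB35*, the GTPase that tethers podocalyxin vesicles at the membrane, fell by 0.32 (adjusted p = 0.0428, passed in 9 of 14), and the motor gene *MYO5B* by 0.83 from a level of 3.08 CPM (adjusted p = 0.00984, passed in 14 of 14). *RAB11A* differed little (0.02, adjusted p = 0.882).

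Transcription factors known to act on the *PODXL* promoter in other cells were read as well. *WT1*, which activates *PODXL* in podocytes, had 7, 2 and 4 counts in siNT and 21, 18 and 12 counts in siLTBP2. It rose by 2.01 on the log2 scale (SE 0.51, adjusted p = 0.0189) and passed in 8 of 13 alternative settings, and its level stayed under 0.5 CPM in every library. Without siNT replicate 2 or 3, or siLTBP2 replicate 1 or 2, it did not pass. *KLF4* (0.75, adjusted p = 0.106, and 0.0229 with the replicate block) and *SP1* (0.08, adjusted p = 0.53) did not pass.

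**Figure D5:**
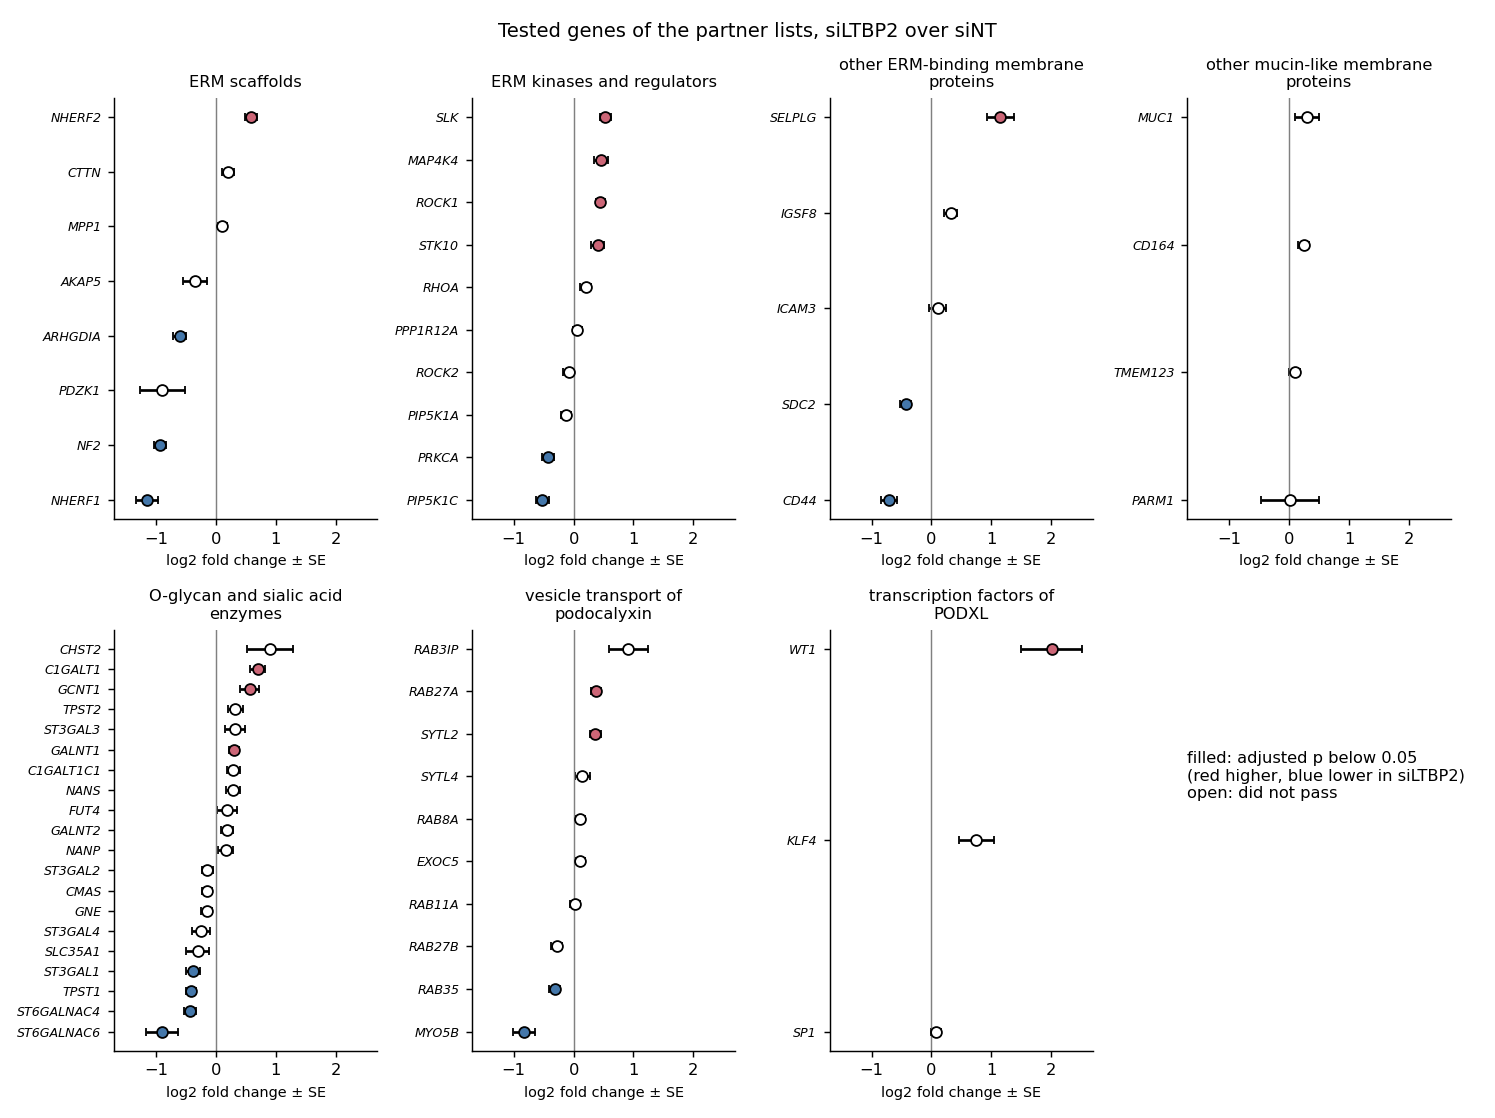
Log2 fold change of siLTBP2 over siNT (± SE) of tested genes of 7 lists of partners, 1 panel per list; the selectins could not be tested. Filled points passed at an adjusted p of 0.05 (red higher, blue lower) and open points did not. *NHERF1* and *NF2* lie at the lower end of the scaffolds while *NHERF2* lies at the upper end, and the kinases *SLK*, *ROCK1*, *STK10* and *MAP4K4* lie above 0.

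The word GCACCCA had drawn attention in 3′ UTRs in earlier results of these libraries and was looked up on the sense strand of the canonical transcripts. Of 12314 tested coding genes whose 3′ UTR spans 50 bases or more, 1455 (11.8%) carry it there. *PODXL*, *CD34*, *EZR*, *RDX* and *NHERF2* have no copy in the 3′ UTR or coding sequence. The copies in *PODXL2*, *MSN* and *NHERF1* are shown because *PODXL2* and *NHERF1* fell, with the word in capitals, coordinates of the word in GRCh38, and all on the plus strand.
PODXL2: gtggggccgaGCACCCAgatgaagatc
MSN: tggGCACCCAgcctctaggg
NHERF1: gtacaaatcaGCACCCAcatccccttt
The copy in *PODXL2* is in coding exon 3, at chr3:127660985-127660991, starting at base 957 of 1818 counted from the start codon. That in *MSN* is in exon 13, at chrX:65739897-65739903, from base 4 of the 2038 bases of the 3′ UTR. The copy of *NHERF1* (exon 6, chr17:74768756-74768762, from base 100 of 697) is also in the 3′ UTR. *LTBP2*, the siRNA target, has 1 copy in its 3′ UTR and 3 in its coding sequence. Copies thus occurred in genes that fell and in *MSN*, which did not pass. As *PODXL2* and *NHERF1* are shown because they fell, the copies there are no result about genes that fell. The share of 11.8% is for 3′ UTRs, and none was computed for coding sequence. The part of the word in any change was not tested.

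Podocalyxin and CD34 are markers of other cell types, so marker genes of these were read in the same libraries. Fibroblast markers were high throughout, with a sum over 9 genes between 10800 and 14000 CPM in siNT and between 11700 and 15900 CPM in siLTBP2. Of the 9, *FN1* rose by 0.76 and *PDGFRB* fell by 0.60 (log2), and the other 7 did not pass. With the replicate block all 7 passed, *COL1A2* (0.29, adjusted p = 0.00411) and *VIM* (0.31, adjusted p = 0.00368) higher and *COL1A1*, *COL3A1*, *DCN*, *LUM* and *THY1* lower by between 0.20 and 0.41. Of 10 endothelial genes, 6 had a mean under 1 CPM, among them the defining *PECAM1*, *CDH5*, *KDR*, *ERG* and *CLDN5*, each with at most 12 counts in any library. *TIE1*, an endothelial receptor gene, was also deregulated, from 1.08 ± 0.52 (SD, n = 3) to 4.39 ± 1.02 CPM (log2 fold change 2.01, adjusted p = 0.00203), while its relative *TEK* was at 74.2 and 68.0 CPM (adjusted p = 0.482). *VWF*, the gene of von Willebrand factor, was lower in every siLTBP2 library (1.84, 1.48 and 1.43 CPM in siNT, 1.10, 1.10 and 0.70 CPM in siLTBP2, log2 fold change -0.71, adjusted p = 0.0655, and 0.0118 with the replicate block). The whole endothelial list summed to between 69.7 and 85.3 CPM in siNT and between 65.4 and 79.9 CPM in siLTBP2. Without *TEK* it was between 3.76 and 4.05 CPM and between 6.08 and 8.01 CPM, respectively.

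Among the podocyte genes, *CLIC5* had no count in any library and *NPHS1* and *PTPRO* were near 0. *SYNPO*, the most abundant of them and also an actin-binding protein of other cells, fell by 0.98 (adjusted p = 0.00116), and the sum of the list was between 213 and 310 CPM in siNT and between 111 and 143 CPM in siLTBP2. Without *SYNPO* the sum was between 0.0608 and 0.151 CPM in siNT and higher, between 0.228 and 0.505 CPM, in siLTBP2. That rest was mostly *WT1*, which rose (adjusted p = 0.0189). Blood cell genes summed to between 0.81 and 2.08 CPM in siNT and between 1.92 and 3.05 CPM in siLTBP2, with *PTPRC* near 0. That sum was mostly *KIT* (log2 fold change 0.96, adjusted p = 0.103, and 0.000369 with the replicate block). Epithelial genes summed to between 40.1 and 52.4 CPM in siNT and between 85.5 and 99.1 CPM in siLTBP2. That sum was mostly *KRT18*, which rose by 1.15 (adjusted p = 0.000237), with *EPCAM* and *CDH1* near 0 and *KRT20* at 0. The part of these marker genes in the values of *PODXL* was not tested.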

How the data were processed

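RNA was measured by sequencing of stranded, ribosomal RNA depleted libraries of CCD18Co cells, 3 siNT and 3 siLTBP2, grouped by their labels. The authors aligned reads to GRCh38 with STAR 2.7.1a and deposited the counts that HTSeq 0.11.2 assigned to each gene, without normalization. Annotation release and strand setting were not given in the sources used here. Of 60663 identifiers, 60462 are in GENCODE 44 (95.7% with the same start), which gave coordinates, lengths and sequences.

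Here, the quasi-likelihood F test of edgeR 4.0.16 (R 4.3.3) was fitted to all libraries without a block, after filterByExpr and TMM scaling, two-sided, with Benjamini-Hochberg adjustment over 16920 genes. Every adjusted p is from this test unless named otherwise. The standard error is the log2 fold change over the square root of F. ERM shares were compared by exact permutation. Genes and lists were chosen with earlier results of these data known. Of each list, genes passing at 0.05 were named, plus some others. Among the others were genes of high level, direct partners of podocalyxin and genes whose call changed with the replicate block. A few genes and 1 sequence named by these rules are not reported here. The fit without a block was tried on simulated counts. In these every gene had the same extra spread and the replicate number had no effect, unlike in the libraries here.

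The labels give both groups the replicate numbers 1 to 3 without saying what a number marks. Over 9397 genes with at least 10 CPM, deviations from group means correlated at 0.63, 0.39 and 0.73 between libraries of the same number, and between -0.61 and 0.03 otherwise. Over all 16920 tested genes these values were 0.33, 0.11 and 0.46, and between -0.42 and 0.1 otherwise. From the data the numbers thus appear to pair the libraries, least clearly for replicate 2. Same-group libraries differed by more than sampling noise (chi-square per degree of freedom 28.01 to 55.05). Alternatives were the likelihood ratio test, scaling by RLE, upper quartile or library total, DESeq2 1.42.0, 2 other filters, the replicate block, other lengths and leaving out each library. The length of all annotated exons was added after the data were seen. The limit of 3 counts that a count of 0 allows covers counting error only, and the 95% intervals come from the spread between libraries.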

Additional observations from a re-analysis of the deposited data

How the results depend on the processing

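The log2 fold changes of *LTBP2*, *PODXL2*, *RDX* and *MSN* kept their direction and side of the threshold in 14 of 14 alternatives, between -1.31 and -1.11 for *PODXL2*, 0.10 and 0.21 for *RDX* and 0.05 and 0.23 for *MSN*. With 1 library left out, *EZR* ranged from 0.313 to 0.441 and did not pass without siNT replicate 2 (0.313) or siLTBP2 replicate 1 (0.371), where fewer libraries are tested. *CD34* ranged from -0.29 to 0.456, reversed without siNT replicate 2 (-0.105) or siLTBP2 replicate 2 (-0.29), and gave no value with a filter of 1 CPM in 3 libraries. The ERM share of *RDX* ranged from -1.16 to 0.354 percentage points, with the sign turned when siLTBP2 replicate 1 (0.354), siNT replicate 2 (0.279) or siNT replicate 3 (0.0307) was left out, and the shares of *EZR* and *MSN* kept their sign in 9 of 9 alternatives.

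The replicate block changed no call among *LTBP2*, *PODXL2*, *CD34* and the ERM genes. In this paired fit 6131 genes passed instead of 3261, and 40 of the list genes instead of 26. Without 1 library, between 2158 and 2781 genes and between 17 and 24 list genes passed. With no low-count filter 680 genes were deregulated instead of 434, and the cause was not tested. The likelihood ratio test, DESeq2 and other scalings kept these counts within 1.5 times. Depth limits *CD34*, *WT1* and *PODXL* in siNT, which rest on fewer than 100 counts per library.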
